A study of Mus musculus with 16 samples.

Results

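The genes described here sit at the receiving end of TGF-beta signalling in mouse CD4 T cells: the receptors Tgfbr1 and Tgfbr2, the signal transducer Smad3, the feedback and repressor genes Smad7, Ski, Skil and Tgif1, and the helix-loop-helix inhibitors Id1, Id2 and Id3. Every probe annotated to these 10 genes was taken. Probes were annotated to 8 of them, of 16593 genes with a probe, and these were 16 of the 25697 probes on the array. None was annotated to Smad7 or Ski, which were therefore not analysed here. A background filter kept 14 of the 16 probes, at least 1 for each of the 8 genes, and 12 were above background on all 16 arrays. Where a gene had several kept probes, the brightest stands for it and the others are given where they differ.

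TGF-beta binds a type II receptor kinase (encoded by Tgfbr2), which recruits and phosphorylates the type I receptor kinase (Tgfbr1), and the latter phosphorylates Smad2 and Smad3. These enter the nucleus with Smad4 and switch target genes on or off, while Ski and SnoN (the product of Skil) repress Smad complexes, Tgif1 recruits repressors to them, and Smad7 blocks the receptor. Id proteins bind E proteins and keep them off DNA. In CD4 T cells TGF-beta together with antigen receptor signals induces Foxp3, the defining factor of regulatory T cells, and E proteins and Id2 and Id3 are known regulators of that process.

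The study compared WT and Erk2-deficient CD4 T cells of strain C57/BL6. Erk2 is a kinase of the Ras-MAP kinase pathway downstream of the antigen receptor. Day 0 cells were arrayed for each genotype, as were cells cultured for 3 hr under Th0 or under iTreg conditions. The day 1 cultures were Th0, Th1, iTreg, and Th0 with TGF added for 1 hr or 3 hr. Each of the 16 combinations of genotype and culture is 1 Illumina bead array. Th0 stands for the culture without lineage-directing signals, Th1 for the culture that drives interferon-gamma producing cells and iTreg for the culture that drives induced regulatory T cells. The cytokines in each medium, the form and dose of TGF, how Erk2 was removed, and the number of mice per sample are missing from the labels. With 1 array per combination, the 2 genotypes serve as the replicates of a culture and the cultures as the replicates of a genotype. Nothing says which samples came from separate animals or cultures, so a p-value covers the spread among these arrays and no more.

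The number of probes above background ran from 12172 to 12636 per array. The day 0, 3 hr and day 1 Th0 arrays were on 1 chip and the other 8 arrays on a second. Within each chip WT and Erk2-deficient samples alternated, so genotype and position on the chip cannot be told apart. The day 0 pair ran against the other pairs at the 2 genes examined for this, picked because earlier results of these data had shown them. For Gdpd3 the Erk2-deficient minus WT log2 difference was −3.48 at day 0 and 0.93 to 2.74 in the other 7 pairs, and for Hba-a1, a haemoglobin gene, it was 3.20 at day 0 and −3.45 to −0.51 in the others. Day 0 samples are therefore called by their labels, their pair has a term of its own in the genotype fits, and no genotype test below rests on it. On the first principal component, which held 71.7% of the variance, the Erk2-deficient day 1 iTreg array lay at 17.1 and the other day 1 arrays between 30.0 and 35.1. The differences behind calls of the 8 genes that rest on this array are also given without it. Of the T cell markers, Cd3d, Cd3e, Cd3g, Cd4, Lat, Cd5 and Cd28 were above background on all 16 arrays. Of the markers of other cells, Pax5, Itgam, Fcgr3, Cd8a and Ncr1 were above background on 0 arrays, but Lyz1, S100a8, Cd8b1, Klrd1 and Nkg7 on all 16, Hba-a1 on 15, Lyz2 and S100a9 on 13 and Cd79b on 12.

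All levels are log2 of normalized fluorescence intensity. A level of 1 probe cannot be set against that of another, so genes are compared only by their changes. Differences between cultures were fitted on all 16 arrays with limma, as culture plus genotype, and p-values were adjusted by the Benjamini-Hochberg method over all 14501 kept probes. A gene is said to rise or fall where the adjusted p was under 0.05.

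**Figure D1:**
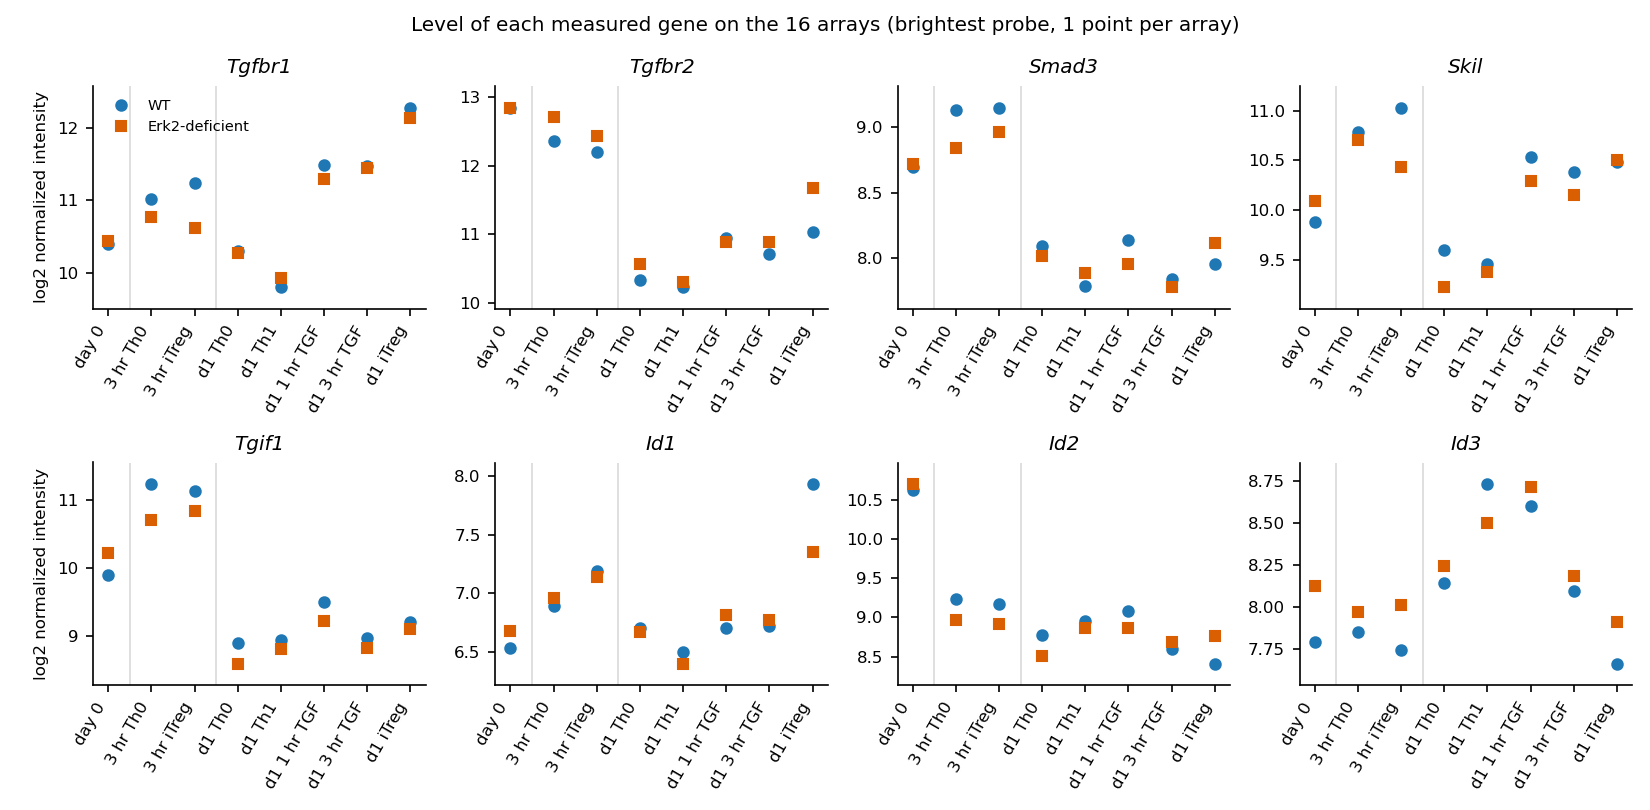
Log2 normalized intensity (vertical axis) of the brightest probe of the 8 measured genes on each array, by culture (horizontal axis), with circles for WT and squares for Erk2-deficient samples and 1 point per array. Tgfbr1 reached 12.28 and 12.13 in day 1 iTreg culture, while Tgfbr2, Tgif1 and Smad3 had their highest levels at day 0 or 3 hr.

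Both receptors rose in day 1 iTreg culture, and Tgfbr1 also rose after a short exposure to TGF. Tgfbr1 stood at 10.30 in WT and 10.27 in Erk2-deficient cells in day 1 Th0 culture. After 1 hr of TGF it was 11.49 and 11.29, after 3 hr 11.47 and 11.44, and in iTreg culture 12.28 and 12.13, in the same order of genotypes. No array with 1 hr or 3 hr of TGF or in iTreg culture overlapped the Th0 arrays. The change was 2.15-fold after 1 hr (log2 difference 1.10, SE 0.133, adjusted p = 0.00124, limma). After 3 hr it was 2.24-fold (1.17, adjusted p = 0.000188) and in iTreg culture 3.78-fold (1.92, adjusted p = 3.13e-07). Without the Erk2-deficient iTreg array the log2 difference in iTreg culture was 1.93. These comparisons share the 2 day 1 Th0 arrays.

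Ordered by mean level, Tgfbr1 ran from iTreg culture at day 1 through 3 hr and 1 hr of TGF, the 3 hr cultures (11.01 and 10.77 in Th0, 11.24 and 10.62 in iTreg), day 0 (10.40 and 10.44) and day 1 Th0 to day 1 Th1 (9.80 and 9.92). The arrays of 1 hr and 3 hr of TGF overlapped, as did those of the 3 hr cultures. The other neighbours in this order did not overlap. Of its other probes, ILMN_2980532 moved with the brightest (0.85 after 1 hr, adjusted p = 0.00355; 1.00 after 3 hr, adjusted p = 0.000188; 1.41 in iTreg culture, adjusted p = 1.27e-06). Another, ILMN_2708965, was above background on only 3 arrays, both day 1 iTreg arrays and the Erk2-deficient array with 1 hr of TGF, which puts iTreg at least 1.22-fold above Th0 (adjusted p = 0.0241, lost in 4 of 14 alternatives, up to 0.174). That bound sets the mean of the bright arrays against the higher, on each dim array, of the probe's own signal and the lowest signal above background. The last, ILMN_1214505, was not above background on any array.

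Tgfbr2 was at 10.34 in WT and 10.56 in Erk2-deficient cells in day 1 Th0 culture, at 10.95 and 10.89 after 1 hr of TGF, at 10.71 and 10.89 after 3 hr, and at 11.03 and 11.67 in iTreg culture. All 6 arrays with TGF or iTreg labels lay above both Th0 arrays, and the Erk2-deficient iTreg array lay apart from the rest. Only the iTreg difference passed the test, at 1.86-fold (0.90, SE 0.129, adjusted p = 0.000365). Without the Erk2-deficient iTreg array the log2 difference was 0.65. The differences after 1 hr and 3 hr of TGF were 0.47 (95% interval 0.19 to 0.74, adjusted p = 0.444) and 0.35 (0.07 to 0.62, adjusted p = 0.329). The dimmer Tgfbr2 probe, ILMN_1242086, differed by 0.13, 0.27 and 0.26 in the 3 comparisons and passed in none (adjusted p = 0.307 in iTreg culture).

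The sequences upstream of the receptor genes are shown because both receptor genes rose in iTreg culture. RefSeq promoter windows (GRCm38.p6) matched 7 of the 10 genes by symbol, with 12 windows in all. The 250 bases before each start were searched on both strands for CAGACA, a Smad-binding element, for its palindrome GTCTAGAC, for GGCGCC, a GC-rich Smad element, and for the E-box CANNTG that E proteins bind; matches of different motifs may overlap. Capitals mark a GGCGCC match. The upstream one of the 2 Tgfbr1 starts, on chr4:47352972-47353221 (+), and the Tgfbr2 start, on chr9:116175364-116175613 (−), read 5′ to 3′ on the gene's strand as follows.
Tgfbr1: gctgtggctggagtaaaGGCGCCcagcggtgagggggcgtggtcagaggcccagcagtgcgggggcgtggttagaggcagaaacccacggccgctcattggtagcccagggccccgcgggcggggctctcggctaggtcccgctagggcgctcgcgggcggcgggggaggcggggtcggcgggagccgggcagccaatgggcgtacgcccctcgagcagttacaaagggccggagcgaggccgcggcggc
Tgfbr2: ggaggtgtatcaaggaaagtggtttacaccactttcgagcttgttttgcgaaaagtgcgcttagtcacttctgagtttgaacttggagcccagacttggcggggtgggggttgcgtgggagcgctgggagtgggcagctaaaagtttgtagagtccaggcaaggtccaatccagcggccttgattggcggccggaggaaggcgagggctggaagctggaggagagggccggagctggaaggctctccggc
The Tgfbr1 window held 1 GGCGCC and none of the other motifs, and the Tgfbr2 window held none of the 4. Over 32841 such windows, 17.1% held CAGACA, 0.167% GTCTAGAC, 9.59% GGCGCC and 66.2% CANNTG. The second Tgfbr1 window held 1 CAGACA and 1 CANNTG. Of the 5 Tgif1 windows 2 held CAGACA and 3 held CANNTG, and the Id3 window held none of the 4 motifs. The Id2 window held 1 GGCGCC and 1 CANNTG. A match is a description of letters in a window and says nothing of binding in these cells.

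Among the Smad and feedback genes Skil rose in all 3 comparisons, whereas Smad3 and Tgif1 passed in none. Skil encodes SnoN, a repressor of Smad complexes that TGF-beta is known to induce. It was at 9.60 in WT and 9.23 in Erk2-deficient cells in day 1 Th0 culture, at 10.53 and 10.29 after 1 hr of TGF, at 10.38 and 10.15 after 3 hr, and at 10.48 and 10.50 in iTreg culture. All 6 arrays lay above the Th0 arrays, and those of 1 hr overlapped those of 3 hr and of iTreg, which did not overlap each other. Skil was 2-fold higher after 1 hr (log2 difference 1.00, SE 0.14, adjusted p = 0.00442). It was 1.81-fold higher after 3 hr (0.85, adjusted p = 0.00438) and 2.11-fold in iTreg culture (1.08, adjusted p = 0.000143). Without the Erk2-deficient iTreg array the log2 difference of Skil in iTreg culture was 0.97. Its other probe, ILMN_2775130, is annotated to another RefSeq transcript and was not above background on any array.

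Tgif1, a homeodomain repressor that binds Smad complexes, was at 8.91 in WT and 8.60 in Erk2-deficient cells in day 1 Th0 culture, at 9.51 and 9.22 after 1 hr of TGF, at 8.97 and 8.83 after 3 hr and at 9.21 and 9.11 in iTreg culture. The arrays with 1 hr of TGF and with iTreg lay above both Th0 arrays, and those with 3 hr overlapped them. The differences were 0.61 after 1 hr (95% interval 0.31 to 0.91, adjusted p = 0.16), 0.14 after 3 hr (−0.16 to 0.45, adjusted p = 0.833) and 0.41 in iTreg culture (0.11 to 0.71, adjusted p = 0.111). By its brightest probe Tgif1 did pass after 1 hr with median scaling (0.63, adjusted p = 0.037) and with array weights (0.0153). It also passed with the genotype term within stage, after 1 hr (0.00397) and in iTreg culture (0.0104). Without the Erk2-deficient iTreg array the iTreg difference of this probe was 0.36. The other kept Tgif1 probes passed in neither comparison under any alternative. After 1 hr ILMN_1212717 was at 0.49 (adjusted p = 0.579) and ILMN_2767113 at 0.19. In iTreg culture they were at 0.13 (adjusted p = 0.704) and 0.20 (0.483). Smad3 stayed between 7.78 and 8.14 on the 10 day 1 arrays, a range of 0.35. Its differences were −0.00 after 1 hr (95% interval −0.22 to 0.22), −0.24 after 3 hr (−0.46 to −0.02, adjusted p = 0.442) and −0.01 in iTreg culture (−0.23 to 0.21).

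The Id genes differed among themselves. Id1 rose in iTreg culture alone among the 3 comparisons. WT and Erk2-deficient cells had 6.70 and 6.67 in Th0 culture, 6.50 and 6.40 in Th1, 6.70 and 6.81 after 1 hr of TGF, 6.72 and 6.77 after 3 hr, and 7.93 and 7.35 in iTreg culture. The iTreg arrays lay above the other 8 day 1 arrays without overlap. The iTreg difference was 1.93-fold (log2 difference 0.95, SE 0.134, adjusted p = 0.000297). Without the Erk2-deficient iTreg array the log2 difference was larger, at 1.25. After 1 hr and 3 hr of TGF the differences were 0.07 (95% interval −0.22 to 0.35) and 0.06 (−0.22 to 0.35).

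Id3 was at 8.14 in WT and 8.24 in Erk2-deficient cells in Th0 culture, at 8.73 and 8.50 in Th1, at 8.60 and 8.71 after 1 hr of TGF, at 8.09 and 8.18 after 3 hr, and at 7.66 and 7.91 in iTreg culture. It was thus highest in the Th1 arrays and those with 1 hr of TGF, which overlapped, and lowest in the iTreg arrays. Id3 fell in iTreg culture (log2 difference −0.41, SE 0.112, adjusted p = 0.0415). This call was lost in 9 of 15 alternatives, where the adjusted p ranged up to 0.237, among them the authors' own normalized values (0.0526) and a fit without the Erk2-deficient iTreg array (0.0724). After 1 hr of TGF the difference was 0.47 (95% interval 0.23 to 0.71, adjusted p = 0.194) and after 3 hr −0.05 (−0.29 to 0.19, adjusted p = 0.95). Id2 lay between 8.41 and 9.08 on the day 1 arrays and differed from Th0 by 0.33 after 1 hr (95% interval 0.05 to 0.61, adjusted p = 1), −0.00 after 3 hr (−0.28 to 0.28) and −0.05 in iTreg culture (−0.34 to 0.23).

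Counted over the 8 measured genes, 2 rose after 1 hr of TGF, Tgfbr1 and Skil, where 0.207% of all kept probes passed and 0.193% were higher. After 3 hr Tgfbr1 and Skil again rose, where 1.17% of probes passed and 0.862% were higher. In iTreg culture 4 rose (Tgfbr1, Skil, Id1 and Tgfbr2) and Id3 fell, where 6.59% of probes passed, 3.6% higher and 2.99% lower. The median difference over the 8 genes was 0.47, 0.10 and 0.65 in the 3 comparisons, and that over all kept probes −0.00, −0.01 and −0.01. These counts rest on few arrays: without 1 of the 4 arrays compared, 0 or 1 of the 8 genes passed after 1 hr (0 without the WT Th0 array or either array with 1 hr of TGF, 1 without the Erk2-deficient Th0 array). With either WT array left out the adjusted p of Tgfbr1 was 0.0578 (Th0) or 0.0536 (1 hr of TGF), at differences of 1.04 and 1.07. After 3 hr, Skil was lost without the Erk2-deficient Th0 array (0.74, adjusted p = 0.133) and without the WT or Erk2-deficient array with 3 hr of TGF (0.107 and 0.0513), which left 1 gene.

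**Figure D2:**
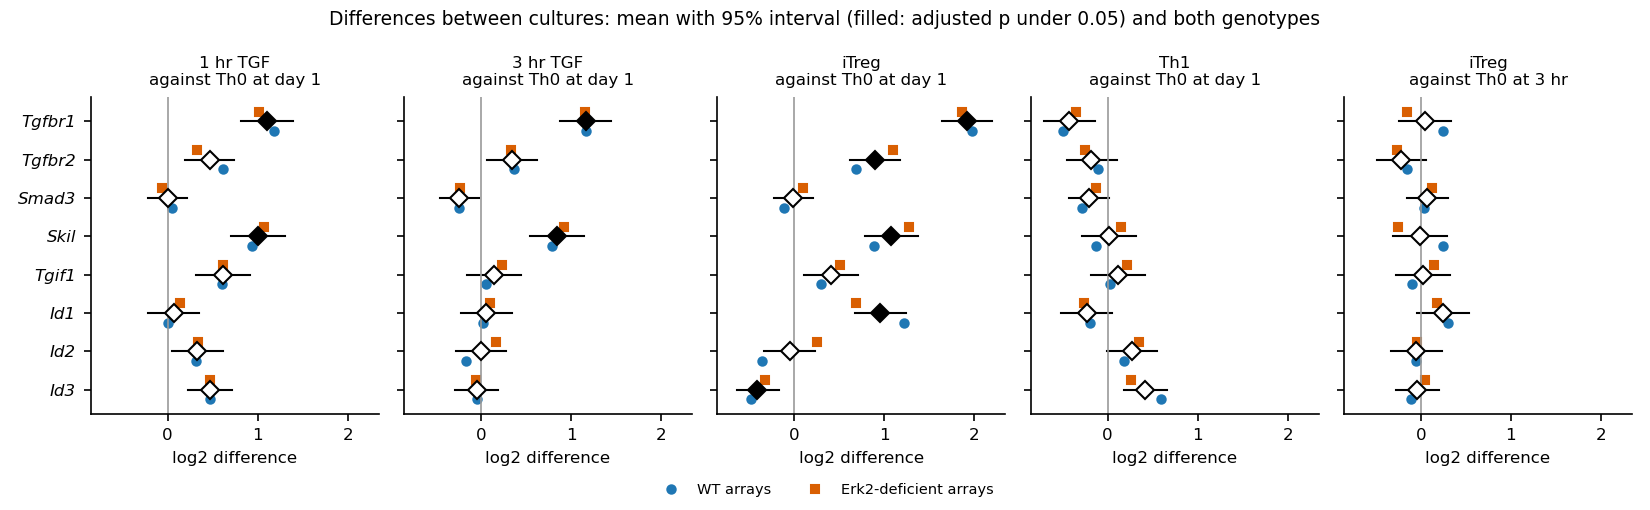
Log2 difference (horizontal axis) of each gene in 5 comparisons of cultures, with diamonds and bars for the mean and its 95% interval from the fit (filled where the adjusted p was under 0.05), circles for the WT arrays and squares for the Erk2-deficient arrays. Tgfbr1 and Skil are filled in the 3 panels with TGF or iTreg culture at day 1, and no gene is filled for Th1 at day 1 or iTreg at 3 hr.

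Some markers of CD8 and NK cells and of T cells moved with iTreg culture and with 3 hr of TGF. None of the 5 B cell, 6 myeloid and 3 red cell markers kept passed in either comparison. Of the 6 kept CD8 and NK cell markers of 8 listed, Nkg7 (1.58) and Klrd1 (0.79) rose and Cd8b1 fell by 1.30, with Cd8a and Ncr1 not above background on any array. The summed intensity of the 6 was 1914 and 2025 on the Th0 arrays and 1758 and 2313 on the iTreg arrays. Of the 7 T cell markers 1 fell, Cd28, by 0.61. After 3 hr of TGF Cd8b1 fell by 0.63 (adjusted p = 0.0429) and Cd28 by 0.61 (adjusted p = 0.02), with sums of 1370 and 1712 over the 6 CD8 and NK cell markers, and after 1 hr none of these markers passed. Their part in the changes of the 8 genes was not tested.

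The Th0 arrays at day 1 were on the first chip and the arrays with TGF, iTreg and Th1 on the second, so these differences cannot be told apart from the chip. The Th1 culture, which carries no TGF label, gives the same differences within the second chip. Against Th1, Tgfbr1 differed by 1.53 after 1 hr (adjusted p = 1.96e-05), by 1.59 after 3 hr (7.46e-06) and by 2.35 in iTreg culture (2.05e-08). Skil differed from Th1 by 0.99 (adjusted p = 0.00205), 0.84 (0.00359) and 1.07 (0.000137), close to its differences from Th0. The brightest Tgfbr2 probe passed in all 3 comparisons with Th1, at 0.65 (adjusted p = 0.0244), 0.53 (0.0488) and 1.07 (5.66e-05). The dimmer one, ILMN_1242086, passed in none of the 15 alternatives of each comparison, which include Th1 as reference. Id1 was 1.18 above Th1 in iTreg culture (adjusted p = 3.08e-05).

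For Id3 the reference changed the calls. After 1 hr of TGF it differed from Th1 by 0.05 (adjusted p = 0.977), against 0.47 from Th0. After 3 hr it was lower than in Th1, at −0.47 (adjusted p = 0.0409), and in iTreg culture it was at −0.83 (adjusted p = 0.00019). Against Th1, 3 of the 8 genes passed after 1 hr, where 0.745% of probes passed, 4 after 3 hr, where 2.05% passed, and 5 in iTreg culture, where 8.54% passed. Th1 culture itself was compared with Th0 across the chips: 0 of the 8 genes passed, against 0.11% of probes (773 probes at an unadjusted p under 0.05). Tgfbr1 was at −0.43 in that comparison (95% interval −0.71 to −0.14, adjusted p = 0.617) and Id3 at 0.42 (0.18 to 0.66, adjusted p = 0.325).

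**Figure D3:**
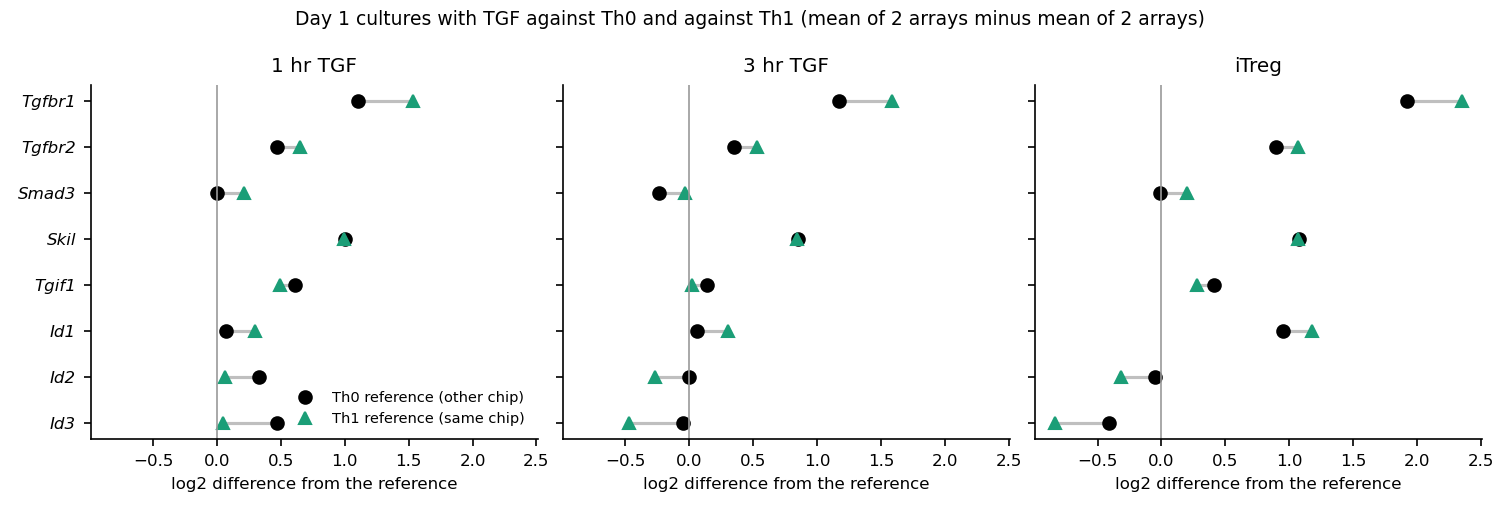
Log2 difference (horizontal axis) of the day 1 cultures with 1 hr or 3 hr of TGF and of iTreg culture, as the mean of 2 arrays minus the mean of 2 reference arrays, with circles for Th0 (other chip) and triangles for Th1 (same chip) as reference. Tgfbr1 and Skil lie well above 0 against both, and Id3 after 1 hr of TGF moves from 0.47 to 0.05.

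Within the second chip, 3 hr of TGF was set against 1 hr. None of the 8 genes passed, against 0.186% of probes. Tgfbr1 and Skil differed by 0.06 (95% interval −0.22 to 0.35) and −0.15 (−0.45 to 0.15) between the times. Id3 differed by −0.52 (adjusted p = 0.0952) and Tgif1 by −0.47 (adjusted p = 0.298), each lower at 3 hr in both genotypes. Both passed where the genotype term was fitted within stage, with adjusted p = 0.035 for Id3 and 0.0353 for Tgif1. The other kept Tgif1 probes, ILMN_1212717 and ILMN_2767113, were at −0.41 (adjusted p = 0.431) and −0.05 (0.967) and passed under no alternative.

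Culture in iTreg conditions for the whole time was also set against 3 hr of TGF on the same chip, a comparison added after the data were seen. Id1 was 1.85-fold higher in iTreg culture (0.89, adjusted p = 0.00111), Tgfbr1 1.69-fold (0.75, adjusted p = 0.00375) and Tgfbr2 1.46-fold (0.55, adjusted p = 0.0234). By their brightest probes 3 of the 8 genes thus rose, where 4.62% of probes passed and 2.16% were higher. The dimmer Tgfbr2 probe, ILMN_1242086, did not move (−0.01, adjusted p = 0.978). The second Tgfbr1 probe, ILMN_2980532, was at 0.41 and did not pass (adjusted p = 0.057). Skil differed by 0.23 (95% interval −0.07 to 0.52, adjusted p = 0.433). Without the Erk2-deficient iTreg array Id1 was at 1.19 (adjusted p = 1.56e-05) and Tgfbr1 at 0.76 (0.0215), whereas Tgfbr2 was at 0.30 (0.303). Without the WT array with 3 hr of TGF only Id1 passed, and Tgfbr1 was at 0.69 (adjusted p = 0.0668) and Tgfbr2 at 0.57 (0.138). Tgfbr2 was also lost without the Erk2-deficient array with 3 hr of TGF (0.53, adjusted p = 0.175).

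At 3 hr of culture the picture differed from day 1. WT and Erk2-deficient Skil was at 10.78 and 10.70 in Th0 and at 11.03 and 10.43 in iTreg culture, and Id1 at 6.89 and 6.96 in Th0 and at 7.19 and 7.14 in iTreg culture. Of the 8 genes 0 passed for iTreg against Th0 at 3 hr in limma, and of all 14501 probes 0 passed (0%), with 527 at an unadjusted p under 0.05. Tgfbr1 differed by 0.04 (95% interval −0.24 to 0.33), Tgfbr2 by −0.22 (−0.49 to 0.06), Skil by −0.01 (−0.31 to 0.29) and Id1 by 0.24 (−0.04 to 0.53). For Tgfbr1 and Skil the genotypes ran opposite ways, at 0.24 in WT for both and at −0.15 and −0.26 in Erk2-deficient cells.

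The change in the iTreg difference from 3 hr to day 1 was tested directly, again as an added comparison. It was 1.88 for Tgfbr1 (SE 0.189, adjusted p = 4.22e-05), 1.11 for Tgfbr2 (adjusted p = 0.00279) and 1.09 for Skil (adjusted p = 0.00597). By their brightest probes it was thus larger at day 1 in 3 of the 8 genes, where 2.57% of probes passed and 1.65% were larger. The dimmer Tgfbr2 probe, ILMN_1242086, was at 0.45 and did not pass (adjusted p = 0.256). Without the Erk2-deficient day 1 iTreg array the values were 1.88 for Tgfbr1 (adjusted p = 8.59e-05), 0.87 for Tgfbr2 (0.00542) and 0.97 for Skil (adjusted p = 0.0205). Skil was lost without the Erk2-deficient day 1 Th0 array (0.98, adjusted p = 0.0579). Id1 did not pass (0.71, adjusted p = 0.0611), but did so without the Erk2-deficient day 1 iTreg array (1.01, adjusted p = 0.000427). Cells given 3 hr of TGF at day 1 were compared in the same way with cells in iTreg culture for their first 3 hr: the Th0-based difference of Tgfbr1 was 1.12 larger in the former (adjusted p = 0.0144), 1 of 8 genes, where 0.365% of probes passed and 0.297% were larger. This call was lost without any 1 of 6 of the 8 arrays, with adjusted p up to 0.13. Skil was at 0.86 (adjusted p = 0.0984). The day 1 part of each of these values crosses the chips and the 3 hr part does not.

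Time in Th0 culture was compared within the first chip. From day 0 to 3 hr of Th0 culture Tgif1 rose from 9.90 and 10.23 to 11.24 and 10.71, in the samples labelled WT and Erk2-deficient, and Id2 fell from 10.62 and 10.70 to 9.23 and 8.96. Neither pair of groups overlapped. Tgif1 was 1.88-fold higher (0.91, SE 0.141, adjusted p = 7.24e-05), Skil 1.68-fold (0.75, adjusted p = 0.000392) and Tgfbr1 1.38-fold (0.47, adjusted p = 0.0097). Id2 fell by 1.57 on the log2 scale (adjusted p = 1.61e-07), and its second probe, ILMN_2887239, by 1.09 (adjusted p = 1.23e-06).

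Smad3 was 0.27 higher at 3 hr (adjusted p = 0.0444), a call lost in 8 of 14 alternatives. The brightest Tgfbr2 probe was at −0.31 (adjusted p = 0.0619) and its dimmer probe, ILMN_1242086, fell by 0.67 (adjusted p = 0.000682). In all 4 of the 8 genes rose and 1 fell, where 43.2% of probes passed, 21.7% higher and 21.5% lower. Without the WT day 0 array or without the WT 3 hr Th0 array 3 passed, Tgfbr1 then being at 0.36 (adjusted p = 0.104) or 0.41 (0.0822).

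From 3 hr to day 1 of Th0 culture most of the genes fell. Tgif1 went from 11.24 and 10.71 to 8.91 and 8.60, Tgfbr2 from 12.36 and 12.71 to 10.34 and 10.56, and Smad3 from 9.13 and 8.84 to 8.09 and 8.02, in WT and Erk2-deficient cells. In each case the later arrays lay below the earlier ones. The falls were 4.66-fold for Tgif1 (−2.22, adjusted p = 2.81e-09), 4.23-fold for Tgfbr2 (−2.08, adjusted p = 2.15e-09), 2.51-fold for Skil (−1.33, adjusted p = 8.06e-07), 1.91-fold for Smad3 (−0.93, adjusted p = 1.57e-06), 1.52-fold for Tgfbr1 (−0.60, adjusted p = 0.00117) and 1.37-fold for Id2 (−0.45, adjusted p = 0.00828). The second Id2 probe, ILMN_2887239, differed by −0.08 (adjusted p = 0.598), and the Id2 call was lost without the WT 3 hr array (0.112) or the Erk2-deficient day 1 array (0.107). Id3 was 0.28 higher (adjusted p = 0.0469), a call lost in 7 of 14 alternatives. In all 6 of the 8 genes fell and 1 rose, where 53.9% of probes passed, 27.5% lower and 26.4% higher.

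Summed intensity of the 6 kept myeloid markers of 10 listed was 2656 and 3176 on the day 0 arrays, 2799 and 1538 on the 3 hr Th0 arrays and 639 and 725 on the day 1 Th0 arrays. Lyz1, Lyz2, Fcer1g, S100a8 and S100a9 were among the kept ones, with Itgam and Fcgr3 below background on all arrays. From 3 hr to day 1, 5 of the 6 fell, as did 2 of 3 red cell markers and 6 of 7 T cell markers. In bulk samples fewer cells of a type and less RNA per cell cannot be told apart, and the part of other cells in the changes with time was not tested.

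Differences between the genotypes at the 8 genes were within 0.64 log2 units in every pair. The 8 Erk2-deficient minus WT differences of Tgfbr1 were 0.04 at day 0, −0.24 in 3 hr Th0, −0.62 in 3 hr iTreg, −0.03 in day 1 Th0, 0.12 in Th1, −0.19 after 1 hr of TGF, −0.03 after 3 hr and −0.15 in day 1 iTreg culture. In the same order those of Tgif1 were 0.33, −0.53, −0.29, −0.31, −0.13, −0.28, −0.14 and −0.09. By this brightest probe Tgif1 was thus lower in all 7 cultured pairs and higher in the library labelled Erk2-deficient at day 0. Its other kept probes were not lower throughout. ILMN_1212717 was at 0.08 in day 1 iTreg culture and −0.00 after 1 hr of TGF, and ILMN_2767113 at 0.06 after 3 hr. Each was lower in its remaining cultured pairs.

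At 3 hr, over 2 pairs, Tgfbr1 was 1.35-fold lower in Erk2-deficient cells (−0.43, SE 0.104, adjusted p = 0.0298) and Tgif1 1.33-fold lower (−0.41, SE 0.0938, adjusted p = 0.023), 2 of the 8 genes, where 3.45% of probes passed and 2.22% were lower. The 2 probes of Tgfbr1 that were above background on all arrays disagreed, with −0.11 for ILMN_2980532 (adjusted p = 0.681). In the Th0 pair the brightest probe was at −0.24 and ILMN_2980532 at 0.13, in opposite directions. In the iTreg pair both were lower, at −0.62 and −0.36. The other Tgif1 probes were at −0.40 (ILMN_2767113, adjusted p = 0.0385) and −0.37 (ILMN_1212717, adjusted p = 0.146). Skil was at −0.34 (95% interval −0.59 to −0.09, adjusted p = 0.139), nearly all of it from the iTreg pair (−0.08 in Th0, −0.59 in iTreg culture). Both calls were lost without the iTreg pair (Tgfbr1 at −0.24, adjusted p = 0.726; Tgif1 at −0.53, 0.117), and Tgif1 was lost without the Th0 pair (−0.29, 0.316). Both were also lost with median scaling, at −0.38 (adjusted p = 0.188) and −0.36 (0.0605).

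Other cell types moved with this comparison. Of the 6 kept myeloid markers 3 were lower in Erk2-deficient cells at 3 hr (Lyz1, Lyz2 and S100a9), with summed intensities of 2799 and 2255 in WT against 1538 and 1343. Of the 3 kept red cell markers 2 were lower (Hba-a1 and Alas2), with sums of 4977 and 4904 against 675 and 563. Their part in the differences of Tgfbr1 and Tgif1 was not tested.

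At day 1, over 5 pairs, none of the 8 genes passed, against 6.37% of probes. Tgif1 was at −0.19 (95% interval −0.32 to −0.06, adjusted p = 0.069), Skil at −0.18 (−0.34 to −0.02, adjusted p = 0.18) and Tgfbr2 at 0.21 (0.05 to 0.38, adjusted p = 0.132). Without the iTreg pair the brightest Tgif1 probe passed, at −0.21 (adjusted p = 0.0432). Over the 5 pairs its other kept probes were at −0.18 (ILMN_1212717, adjusted p = 0.242) and −0.13 (ILMN_2767113, 0.255), and they passed under no alternative. The largest pair differences of the 8 genes at day 1 were in iTreg culture, at 0.64 for Tgfbr2 and −0.58 for Id1, and their pair holds the array that stood apart. For Id1 the other 4 day 1 pairs lay between −0.10 and 0.11, and for Tgfbr2 between −0.06 and 0.22. Skil was lower in 4 of the 5 day 1 pairs, at −0.37 in Th0, −0.08 in Th1, −0.24 after 1 hr of TGF, −0.23 after 3 hr and 0.03 in iTreg culture.

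Whether the genotype difference depends on time or on TGF was tested as well. Between 3 hr and day 1 it changed by 0.37 for Tgfbr1 (95% interval 0.11 to 0.63, adjusted p = 0.199) and by 0.22 for Tgif1 (−0.02 to 0.45, adjusted p = 0.479), and 0 of the 8 genes passed in limma, against 1.23% of probes. Between the 3 day 1 pairs with TGF or iTreg culture and the 2 without, 0 of the 8 genes and 0 of all probes passed (0%), with 483 probes at an unadjusted p under 0.05. That difference was −0.17 for Tgfbr1 (95% interval −0.45 to 0.11), 0.08 for Skil (−0.25 to 0.41) and 0.10 for Tgfbr2 (−0.24 to 0.45). In both genotypes Tgfbr1 and Skil were higher after 1 hr of TGF than in Th0 culture, Tgfbr1 by 1.18 in WT and 1.02 in Erk2-deficient cells and Skil by 0.94 and 1.07. A p that misses the threshold does not show that the genotypes respond alike.

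**Figure D4:**
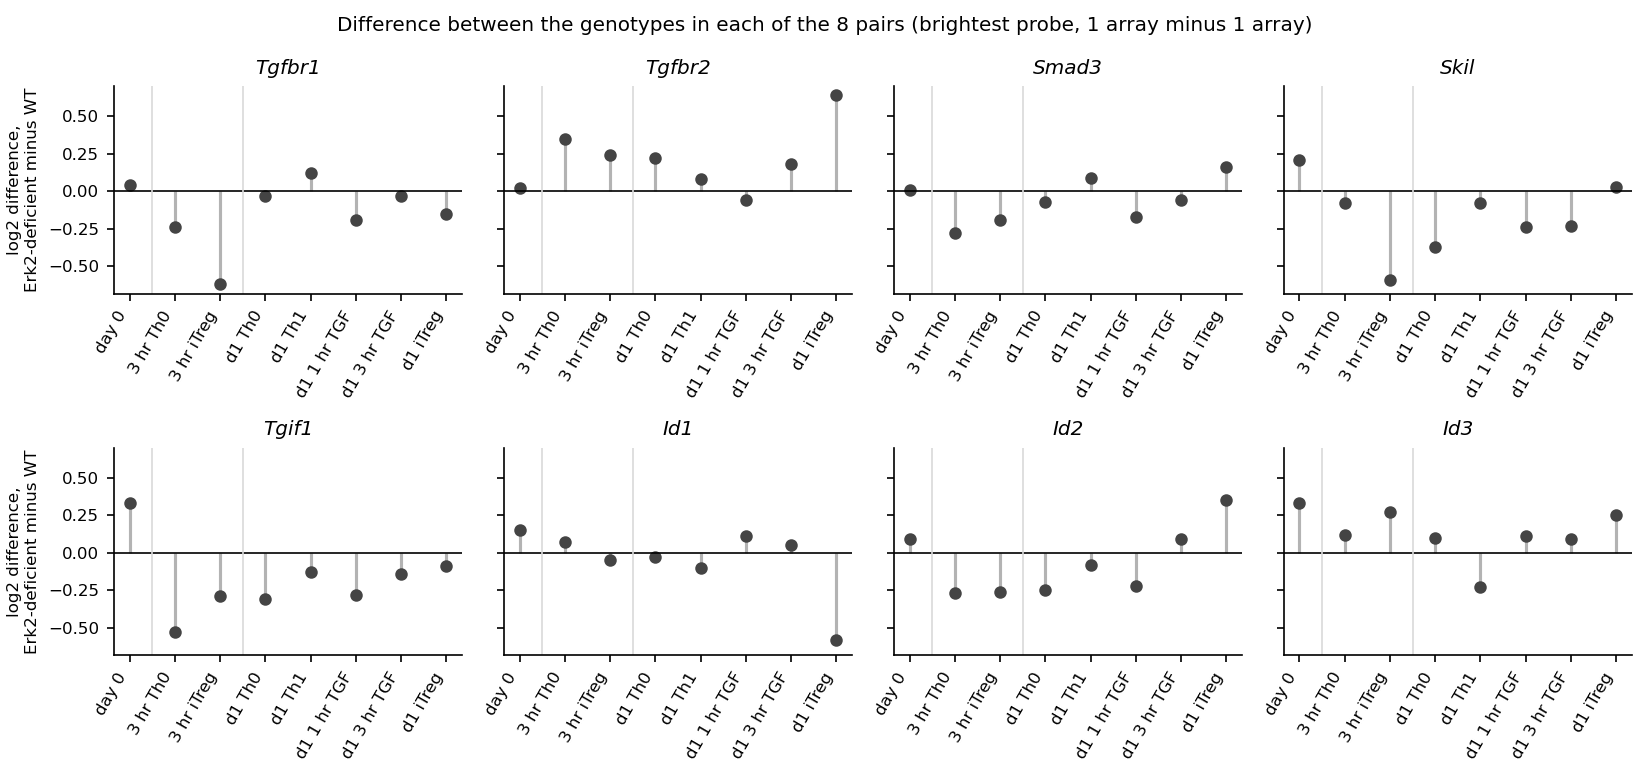
Log2 difference between the genotypes, Erk2-deficient minus WT (vertical axis), in each of the 8 pairs of arrays (horizontal axis), for the brightest probe of each gene, with 1 point per pair and lines to 0. Tgif1 lies below 0 in the 7 cultured pairs, and the widest day 1 differences, of Tgfbr2 (0.64) and Id1 (−0.58), are in iTreg culture.

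Other genes of the pathway were followed through lists, chosen with earlier results of these data known. Of 15 measured TGF target genes of 18 listed, 2 rose after 1 hr of TGF and 2 after 3 hr, where 0.207% and 1.17% of all probes passed. At both times they were Rgs16, a regulator of G protein signalling (1.90, adjusted p = 0.0211, and 1.96, adjusted p = 0.00407), and Nt5e, the ectonucleotidase CD73 (1.20, adjusted p = 0.00124, and 1.81, adjusted p = 6.92e-06). In iTreg culture 5 rose and 1 fell, where 6.59% of all probes passed. Those with the largest change were Nt5e (2.98, adjusted p = 3.34e-09), Foxp3 (2.50, adjusted p = 3.25e-05), Rgs16 (1.68, adjusted p = 0.00387) and Itgae, the integrin CD103 (1.23, adjusted p = 1.44e-06). The median over the 15 genes was 0.01, −0.00 and 0.17 in the 3 comparisons, against −0.00, −0.01 and −0.01 over all kept probes. At 3 hr, where no probe passed, the difference between iTreg and Th0 culture was −0.05 for Foxp3, −0.19 for Nt5e and 0.23 for Itgae.

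Of the 8 measured genes that make or release TGF-beta, 1 passed after 1 hr, 1 after 3 hr and 2, in opposite directions, in iTreg culture. Of all probes 0.207%, 1.17% and 6.59% passed in these comparisons. Nrros, which holds latent TGF-beta, was lower after 1 hr of TGF (−0.64, adjusted p = 0.0364), after 3 hr (−0.52, adjusted p = 0.0429) and in iTreg culture (−0.63, adjusted p = 0.00309). Furin, the protease that cleaves the TGF-beta precursor, was higher in iTreg culture (1.25, adjusted p = 0.000356) and in Th1 culture (1.01, adjusted p = 0.0392). Of 16 measured Smad regulators only Smurf2, a ubiquitin ligase that targets the receptors and Smads, rose in iTreg culture (0.42, adjusted p = 0.0349). None of the 6 other receptors and co-receptors, the 5 other Smads and the 2 E proteins measured passed in these 3 comparisons.

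Over time in Th0 culture, 6 of 16 Smad regulators rose and 4 fell by 3 hr, where 43.2% of all probes passed, and from 3 hr to day 1 1 rose and 8 fell, where 53.9% passed. As shares of the list these are 62.5% and 56.2%. Tgfb1, the ligand gene, rose by 3 hr (1.38, adjusted p = 5.56e-06) and was lower at day 1 than at 3 hr (−1.04, adjusted p = 5.95e-05). Tgfbr3, the co-receptor betaglycan, fell by 1.63 on the log2 scale by 3 hr (adjusted p = 3.35e-07). Smad4, the shared partner of the receptor Smads, fell by 1.15 from 3 hr to day 1 (adjusted p = 1.05e-08) and Smad5 by 1.53 (adjusted p = 4.8e-09).

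Genes of the target list also differed between the genotypes. Of the 15 measured, 12 (80%) also changed from day 0 to 3 hr of Th0 culture, where 43.2% of probes passed. None passed for iTreg against Th0 culture at 3 hr, where no probe did. Between the 3 day 1 pairs with TGF or iTreg culture and the 2 without, the change in genotype difference passed at 0 of the 15. The median change was 0.01, and 0 of all probes passed. With so few pairs this does not show that the genotype differences are alike with and without TGF. Whether those at 3 hr bear on TGF was not tested. At 3 hr 5 of the 15 target genes were lower and 0 higher (median −0.38, against 0.01 over all probes), where 3.45% of probes passed and 2.22% were lower, with Rgs16 at −1.36 (adjusted p = 5.08e-06), Cdkn1a, a cell cycle inhibitor, at −1.20 (adjusted p = 6.82e-07), Foxp3 at −0.57 (adjusted p = 0.0146) and Gadd45b, a stress-response gene, at −0.49 (adjusted p = 0.0234). At day 1 4 were higher and 5 lower (median 0.02), where 6.37% of probes passed. Rgs16 was again lower (−1.38, adjusted p = 8.58e-09), as was Cdkn1a (−0.70, adjusted p = 7.96e-07), while Socs3, an inhibitor of cytokine signalling, was higher (0.77, adjusted p = 0.000534), as was Foxp3 (0.60, adjusted p = 0.000134). Of the 2 E proteins, the Id targets, Tcf4 was lower at day 1 (−0.40, adjusted p = 0.00627). The myeloid and red cell markers given above move with the 3 hr values. At day 1, 4 of the 6 kept myeloid markers passed. S100a8 (0.71) and S100a9 (0.42) were above WT, Lyz1 (−0.60) and Lyz2 (−0.35) below it. Nkg7 (0.77) and Klrd1 (0.31) passed among the 6 CD8 and NK cell markers, and Cd5 (−0.38) among the 7 T cell markers. Of the 3 red cell markers 1 passed, Hba-a1, at −1.78 (adjusted p = 6.9e-06), and of the 5 B cell markers 0. The part of these markers in the genotype differences was not tested.

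The genes whose levels ran most like those of a member over the 10 day 1 arrays were found among 583 candidate probes, as a description. Closest to Tgfbr1 were Traf6 (Pearson r 0.981), Stat5a (0.977) and Nt5e (0.962). Tgfbr2 ran with Mical1 (0.975), Nlrc3 (0.967) and Arhgap27 (0.963), and Skil with Dusp4 (0.947), another probe of Traf6 (0.940) and Phlda1 (0.937). Id1 ran with Pdlim5 (0.951), Tfap2a (0.950) and Capg (0.946), and Id3 less closely, with Cd226 (0.869), Stap1 (0.868) and Casp1 (0.862). Among the members the coefficient was 0.93 for Tgfbr1 and Skil, 0.89 for Tgfbr1 and Tgfbr2, and −0.77 for Id1 and Id3. The 10 points share 5 cultures, 2 chips and the normalization, and the iTreg arrays are the extreme points for several of these genes.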

How the data were processed

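RNA from 16 samples of mouse CD4 T cells was hybridised as biotin-labelled cRNA to Illumina bead arrays, per the labels. The deposited non-normalized table holds probe intensity on a linear scale, without detection p-values. The authors' normalized values in the series matrix are also intensity, their method not stated, and served as an alternative. With limma 3.58.1 (R 4.3.3), intensities were corrected for background by normexp (offset 50), quantile normalized between arrays and taken to log2. Probes above the 99th percentile of an array's background on at least 2 of 16 arrays were kept (14501). For this background limit, dim probes were modelled as normal around each array's modal log2 intensity. The number of arrays limits the precision. Culture differences came from a fit of culture plus genotype (7 residual degrees of freedom) and genotype differences from a fit of genotype within day 0, 3 hr and day 1 (5; 4 when split by TGF). The steps were tested on simulated data. Alternatives were other background corrections, normalizations, filters, priors and covariates, array weights, the series matrix values, Th1 as reference, and leaving out arrays or pairs. Gene names came from the platform's annotation (23978 probes with 1 symbol, 1719 with none). The members and gene lists were chosen with earlier results of these data known. All 10 members were named with every probe, and of each pathway list up to 4 genes per comparison, those past the threshold with the largest change. Genes of like pattern were the 3 with the highest Pearson r to each member whose range at day 1 was at least 1. A check of the genotype labels on the targeted gene is not reported here.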

Additional observations from a re-analysis of the deposited data

How the results depend on the processing

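No member's call changed direction under any alternative. Of the log2 differences of single probes, 2878 alternatives left the outcome as it was, 82 lost a call and 35 gained one. The 2878 include probes that passed in neither fit, so these counts do not give the share of calls that held. The number of the 8 genes that passed moved as follows. With array weights 5 passed after 1 hr of TGF (2 in the fit reported), 1 for Th1 against Th0 (0), 1 for 3 hr against 1 hr of TGF (0), 1 for the genotypes at day 1 (0) and 2 for 3 hr of TGF at day 1 against iTreg at 3 hr (1). With median scaling the last count was 2 and that for the genotypes at 3 hr was 0 (2). With the genotype term within stage, 3 hr against 1 hr of TGF gave 2 (0), and with day 0 and 3 hr as 1 stage the genotypes at 3 hr gave 0 (2). With Th1 as reference, 3 hr of TGF gave 4 (2). Leaving out 1 array or pair gave 0 to 1 gene after 1 hr of TGF, 1 to 2 after 3 hr, 3 to 6 for 3 hr Th0 against day 0, 0 to 1 for the genotypes at day 1, 0 to 1 at 3 hr, 1 to 3 for iTreg against 3 hr of TGF, and 0 to 2 for 3 hr of TGF at day 1 against iTreg at 3 hr.

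Counts over all probes ranged from 0 to 108 after 1 hr of TGF (30 in the fit reported), 50 to 433 after 3 hr (169), 383 to 1715 in iTreg culture (956), 4 to 112 for Th1 (16), 7 to 111 for 3 hr against 1 hr of TGF (27), 409 to 1095 for the genotypes at day 1 (923) and 0 to 614 at 3 hr (501). For the difference between the stages they ranged from 14 to 403 (179), for iTreg against 3 hr of TGF from 189 to 1564 (670), for its change from 3 hr to day 1 from 179 to 1181 (373) and for 3 hr of TGF at day 1 against iTreg at 3 hr from 18 to 83 (53). In iTreg culture at day 1 the brightest probes of Tgfbr1, Skil, Id1 and Tgfbr2 passed in all 15 alternatives, whereas Id3 lost its call in 9 of 15 and the dim Tgfbr1 probe ILMN_2708965 in 4 of 14. A lone array left in a culture was assumed to vary like the others. The genotype fits pair WT and Erk2-deficient arrays by culture, and the labels carry no replicate numbers for a further block. Id1 lies near background, where the offset makes a fold smaller.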
